A study of Saccharomyces cerevisiae W303 with 28 samples.

Results

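Chromatin binding of the cohesin subunit Scc1 was compared between a rad17 pds5-AID double mutant and wild type of Saccharomyces cerevisiae (W303) in which 1 chromosome had been cut. The libraries were chosen by their labels: HA-tagged Scc1, a double-strand break and nocodazole, in rad17 pds5-AID (n = 2 immunoprecipitates, IP) and in wild type (n = 2), each IP with its own whole-cell extract. These 8 libraries are part of 28 in the series, which concerns cohesin and the search for homologous DNA in repair. Both groups carried 6HA-tagged Scc1, had been in galactose for 4 h to induce the break and were held in mitosis by nocodazole, a drug that removes microtubules. The double mutant carried rad17 and pds5-AID, a degron allele of PDS5, and wild type carried neither. The labels do not mention auxin, so how far Pds5 was depleted is not known here. Each genotype was 1 strain, used for both replicates, and the labels do not tell whether the replicates were grown separately. The p-values below therefore rest on the spread between libraries, part or all of which may be technical. For reference, the same HA libraries of the rad17 strain (n = 2) and the pds5-AID strain (n = 2), of wild type without a break (n = 1) and of an untagged strain with a break (n = 1) were used.

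Cohesin is a ring-shaped complex that holds sister chromatids together from replication to anaphase, and Scc1 is the kleisin subunit that closes the ring. In budding yeast it is densest around centromeres, it sits at many sites along the arms, and more of it is loaded around a double-strand break, where it ties the broken chromatid to its sister. Rad17 is a subunit of the checkpoint clamp that is loaded onto damaged DNA and that is needed for the checkpoint kinases to act. Pds5 binds the cohesin ring and is needed in yeast to keep sister chromatids joined.

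Scc1 was lower in the double mutant nearly everywhere, but not evenly so. With ends, arms and peaks each pooled, it was lowest relative to wild type beside the break. There 14.02% and 17.9% of the wild-type level were left at 5 to 10 kb on the left and right sides. At chromosome ends 25.8% was left and on arms 38.6%. Single ends ran from 16.7% at the right end of chromosome 1 to 50.8% at the left end of chromosome 9, so some fell as deeply as the right side of the break. At the highest Scc1 peak of each chromosome 53.7% was left. These values are Scc1 levels per DNA: the calibrated IP coverage of a 1 kb window or a region, divided by the extract relative to its own median.

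The data are coverage in 12447 windows of 1 kb on 16 chromosomes, of which 11638 were kept because their extract was neither very low nor very high. Median IP coverage, taken as reads per window, was 25.9 and 70.6 in the double mutant, against 82.0 and 65.5 in wild type, so replicate 1 of the double mutant was the thinnest of the 4. The extract of wild-type replicate 2 was uneven: its log2 coverage had an SD of 0.497 over kept windows, against 0.235 and 0.25 in the double mutant and 0.252 in wild-type replicate 1. The extract of wild type without a break was more uneven still, at 0.801. The labels of that library conflict: its title calls the cut site uncleavable and its treatment field gives break induction. The title was followed, and its extract held 101.8% and 107.8% of the mean of both no-break extracts, itself included, 5 to 10 kb to the left and right of the cut site. No gene or sequence was placed, since no build is named for the windows in the labels or files used here.

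The first comparison asked how much Scc1 the double mutant had over the whole genome. The genome level, the median over kept windows, was 6.23 and 7.38 in rad17 pds5-AID, against 15.5 and 17.8 in wild type and 15.2 in wild type without a break. Both double-mutant libraries thus lay below every wild-type library. On the log2 scale the means were 2.76 ± 0.17 in the double mutant and 4.05 ± 0.14 in wild type (SD, n = 2 each), a difference of -1.29 that leaves 40.8% of the wild-type level. The exact two-sided permutation test gave p = 0.33, the smallest that 2 libraries against 2 can give. The untagged strain stood at 1.99, so the double mutant lay 3.40-fold above background and wild type 8.33-fold above it.

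Window by window, Scc1 fell in 10634 of 11638 windows, 91.4%, and rose in none (limma over 9 HA libraries, Benjamini-Hochberg adjusted p under 0.05; 10683 windows had an unadjusted p under 0.05 in either direction). In 98.5% of windows both double-mutant values lay below both wild-type values. Without division by the extract, 11156 windows fell, 95.9%, and 4 rose, 0.0344%. When each library was instead set relative to its own median, 1721 windows fell, 14.8%, and 1625 rose, 14% of those tested. Centring on the median took out a genome-wide shift of -1.29, and the centred calls split between places that kept less Scc1 than most and places that kept more. The share of windows that fell was 94.9% within 100 kb of the break, 78.9% at the maxima, 91.5% on arms and 98.6% at chromosome ends. Of the 111 regions tested, all 111 fell, 100%, so that a region's own call says nothing particular about it and its size is what follows. Chromosome medians ran from -1.41 on chromosome 5, which carried the break, to -1.16 on chromosome 6.

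**Figure D1:**
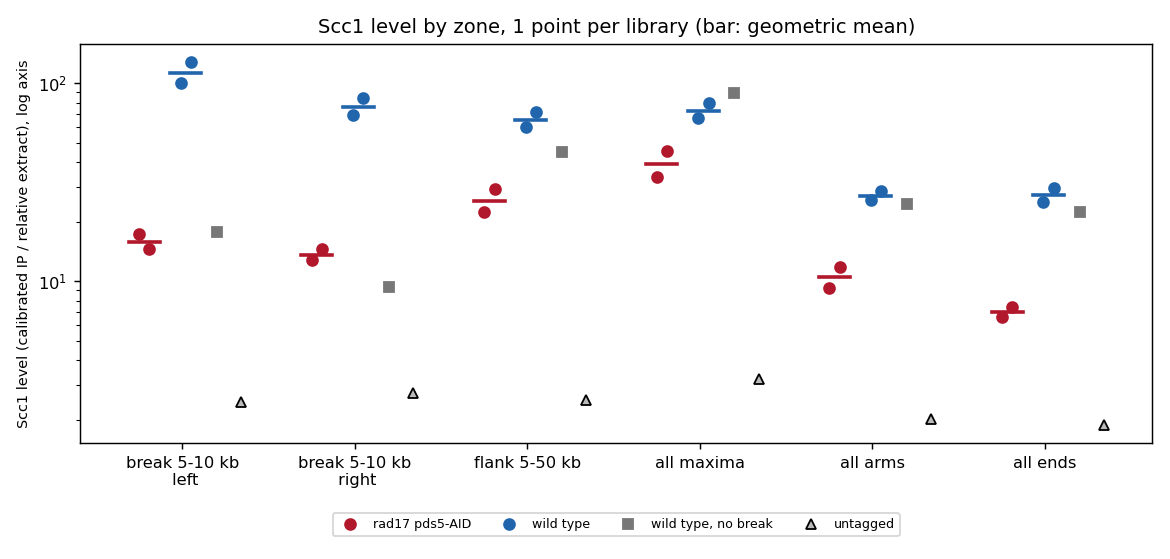
Scc1 level (calibrated IP over relative extract, log axis) in 6 zones, 1 point per library, with bars at the geometric mean of each group of 2 libraries. The rad17 pds5-AID points lie below the wild-type points in each zone, with the widest gap 5 to 10 kb to the left of the cut (17.3 and 14.7 in the double mutant, 100.5 and 128 in wild type), while the untagged library lies below both groups.

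The break itself showed in the extracts as lost DNA. It was placed where extracts with a break fell furthest below those without one, averaged over 5 windows, with its centre at chromosome 5, 119001 to 120000. This uses no IP value. At 0 to 5 kb left, the extracts of the double mutant kept 26.9% and 26.6% of no-break coverage, against 16.99% and 15.6% in wild type. To the right over the same distance they kept 23.7% and 23.3%, against 19.3% and 16.5%. Farther out the order turned: at 10 to 20 kb left the double mutant kept 73.3% and 65.0%, against 88.9% and 82.2% in wild type, and at 10 to 20 kb right 86.9% and 81.2%, against 108.3% and 89.2%. At 5 to 10 kb the double mutant kept 43.6% and 39.4% on the left, against 37.9% and 35.2% in wild type, while on the right the groups overlapped, at 34.3% and 24.5% against 33.9% and 37.9%. At 20 to 30 kb left the double mutant kept 97.1% and 89.1%, against 104.1% and 103.1% in wild type. At 30 to 50 kb left it kept 73.4% and 74.2%, against 77.5% and 90.4%. The groups thus did not overlap in DNA left at any class from 0 to 50 kb left. On the right they did not overlap at 0 to 5 and 10 to 20 kb, and overlapped at 5 to 10, 20 to 30 and 30 to 50 kb. Scc1 beside the break is given below both per DNA and as IP alone.

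Beside the break, the double mutant lost most of the Scc1 that wild type carried. At 5 to 10 kb left the Scc1 level was 17.3 and 14.7 in rad17 pds5-AID, against 100.5 and 128 in wild type, with 2.47 in the untagged library. The groups did not overlap, and the gap was far wider than the spread within either. The log2 means were 3.99 ± 0.17 in the double mutant and 6.83 ± 0.25 in wild type (SD, n = 2 each), a difference of -2.83 ± 0.27 (SE; limma, adjusted p = 1.75e-21), or 7.14-fold lower. That p rests on 1 spread shared by all regions, and without that pooling it was 0.00851 after adjustment. On the right, at the same distance, the level was 12.8 and 14.6 in the double mutant, against 69.2 and 84.0 in wild type and 2.73 untagged, a difference of -2.48 ± 0.27 (adjusted p = 2.60e-17), or 5.57-fold lower. Within 0 to 5 kb right it was 8.82 and 7.48, against 49.1 and 67.4, a difference of -2.82. The class at 0 to 5 kb left held too few kept windows and has no value. As IP alone the differences at 5 to 10 kb were -2.65 on the left and -2.78 on the right, so a loss of this size was also present in the IP before division by the extract.

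The loss was largest within 10 kb of the break and did not shrink evenly with distance on either side. Rightwards the difference was -1.54 at 10 to 20 kb, -1.14 at 20 to 30 kb and -0.91 at 30 to 50 kb, where 53.3% of wild type was left. That last class holds the Scc1 maximum of chromosome 5, which lay 37 kb from the break. Beyond it the loss was -1.59 at 50 to 75 kb and -1.45 at 75 to 100 kb. Leftwards it was -2.11 at 10 to 20 kb, -1.68 at 20 to 30 kb, -1.70 at 30 to 50 kb, -2.004 at 50 to 75 kb and -1.44 at 75 to 100 kb. All 13 distance classes had adjusted p-values under 0.05, the highest 0.000894 at 30 to 50 kb right. Over 5 to 50 kb on both sides the level was 22.4 and 29.2 in the double mutant, against 60.4 and 71.3 in wild type, a difference of -1.36 ± 0.27. With the chromosome 5 maximum left out of that stretch the difference was -1.80, which leaves 28.8% in place of 39.0%.

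**Figure D2:**
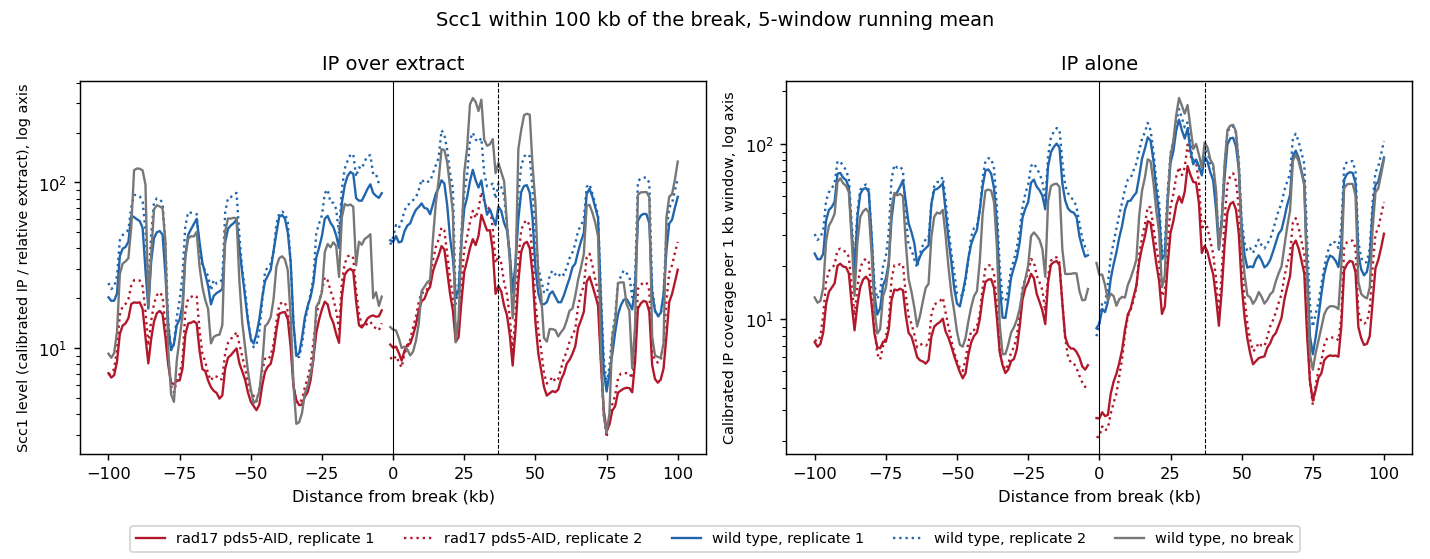
Scc1 within 100 kb of the break (solid line at 0; the dashed line marks the chromosome 5 maximum) as 5-window running means on a log axis, per DNA in one panel and as IP alone in the other, 1 line per library. Both rad17 pds5-AID lines run below both wild-type lines at all but 2 of 199 positions per DNA and all but 1 as IP alone. The exceptions lie at 33 and 34 kb right, where replicate 2 of the double mutant (68.5 and 71.0 per DNA) passes replicate 1 of wild type (63.9 and 68.9).

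To ask whether the loss beside the break exceeded that of the rest of the genome, zones were divided by each other within each library, which removes the calibration factor. At 5 to 10 kb left of the break Scc1 was 1.86 and 1.24 times the arm level in the double mutant, against 3.92 and 4.48 times in wild type, a log2 difference of -1.46 ± 0.25 (limma over 8 ratios, adjusted p = 0.00131). On the right it was 1.37 and 1.24 times the arm level in the double mutant, against 2.69 and 2.94 times in wild type, a difference of -1.11 ± 0.13 (adjusted p = 0.000372). Per DNA, Scc1 next to the cut was thus above the arms in every one of these 4 libraries, and less so in both double-mutant libraries. The ratios of single libraries as IP alone are not given here. On that scale, with the pseudocount, double-mutant windows at 5 to 10 kb left held 4.50 to 8.65 in replicate 1 and 3.73 to 6.32 in replicate 2. The IP medians of these libraries were 5.84 and 6.91, so standing above the arms was shown only after division by the extract. Against the maxima the same classes differed by -1.94 and -1.58. The stretch of 5 to 50 kb as a whole was 2.41 and 2.47 times the arm level in the double mutant, against 2.35 and 2.49 times in wild type, a difference of 0.01 ± 0.08 that did not pass the test (adjusted p = 0.889). That stretch holds the chromosome 5 maximum. With the maximum left out, the difference from wild type was -1.80, against -1.37 on arms, and the ratio of that shorter stretch to the arms was not tested.

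The level next to the cut in the double mutant was then set beside wild type that had not been cut. At 5 to 10 kb left it was 17.3 and 14.7 with a break, against 17.8 in uncut wild type (n = 1), a log2 difference of -0.17 ± 0.33 (adjusted p = 0.616). On the right it was 12.8 and 14.6, against 9.40, a difference of 0.54 ± 0.33 (adjusted p = 0.106). Neither difference passed the test in a comparison in which 93.7% of the 111 regions were lower in the double mutant and 0 were higher. These 2 values depended on the scale. As IP alone they were -1.46 and -1.35, and relative to the library median they were 1.00 and 1.70, all past the test (regions lower: 99.1% as IP alone and 26.1% centred; higher: 0% and 12.6%), so no order between the double mutant and uncut wild type holds on every scale. IP alone takes no account of lost DNA, of which the double-mutant extracts kept 43.6% and 39.4% at 5 to 10 kb left and 34.3% and 24.5% at 5 to 10 kb right. The 95% interval was -0.81 to 0.48 on the left and -0.11 to 1.19 on the right. With 1 uncut library, its spread was taken to equal that of the replicated groups.

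Among maxima, arms, ends and the classes within 10 kb of the break, each taken whole, the loss at the chromosome maxima was the smallest. A maximum was the highest 21-window mean of each chromosome in the Pk-tagged library of uncut wild type, a library of another tag, with 15 kb taken to each side; on budding yeast chromosomes the densest cohesin lies around the centromere, but no centromere was placed here. Over all 16 maxima the level was 33.6 and 45.6 in the double mutant, against 66.5 and 79.8 in wild type and 89.9 in wild type without a break. The groups did not overlap. The difference was -0.90 ± 0.27 (adjusted p = 0.00100). Without replicate 1 of the double mutant it was -0.68 and no longer passed (adjusted p = 0.0531). Each of the 16 single maxima fell, from -1.09 on chromosome 13 to -0.76 on chromosome 3, with a median of -0.92, against -1.24 over all windows.

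Relative to the library median the maxima turned the other way: all 16 rose, and over all of them the difference was 0.39 (adjusted p = 0.00188). Against the arms of the same library, the maxima were 3.61 and 3.86 times as high in the double mutant and 2.59 and 2.79 times in wild type, a log2 difference of 0.47 ± 0.08 (adjusted p = 0.00131). Wild type without a break had a ratio of 3.68, 0.02 from the double mutant on the log2 scale (adjusted p = 0.825). The share of wild type that was left was 57.0% within 5 kb of a maximum of an uncut chromosome, 51.4% at 5 to 10 kb, 49.7% at 10 to 15 kb, 46.8% at both 15 to 20 and 20 to 30 kb, and 45.1% at 30 to 50 kb. The untagged signal was also highest there, at 4.77 within 5 kb. With it subtracted 55.0% was left within 5 kb and 40.9% at 30 to 50 kb.

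On the arms, outside the maxima, the outer 20 kb and 100 kb around the break, Scc1 stood at 9.30 and 11.8 in the double mutant, against 25.7 and 28.6 in wild type and 24.5 in wild type without a break. The difference was -1.37 ± 0.27 (adjusted p = 8.86e-07). All 31 single arms fell, from -1.63 on the right arm of chromosome 1 to -1.12 on the right arm of chromosome 6, a narrow range beside that of the ends. Relative to the library median the arms differed by -0.08 (adjusted p = 0.282), and 4 arms fell and 1 rose (41.4% of all regions fell and 25.2% rose on that scale).

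Within the arms, as measured, windows that carry more Scc1 lost a larger share of it. Arm windows were ranked into quintiles by a Pk-tagged wild-type library with a break, which took no part in the test. In the lowest quintile the level was 3.62 and 3.96 in the double mutant, against 6.94 and 6.72 in wild type and 1.81 untagged, which leaves 55.4%. In the highest quintile it was 23.3 and 31.3, against 72.6 and 91.0 and 2.24 untagged, which leaves 33.2%. The quintiles between left 47.0%, 43.1% and 38.6%. The ratio of the highest to the lowest quintile was 6.42 and 7.91 in the double mutant, against 10.5 and 13.5 in wild type, a log2 difference of -0.74 ± 0.18 (adjusted p = 0.00661). The gradient was smaller with the untagged level subtracted: 39.4% was then left in the lowest quintile, then 35.6%, 34.9% and 33.6%, and 31.5% in the highest. That smaller gradient was not tested.

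**Figure D3:**
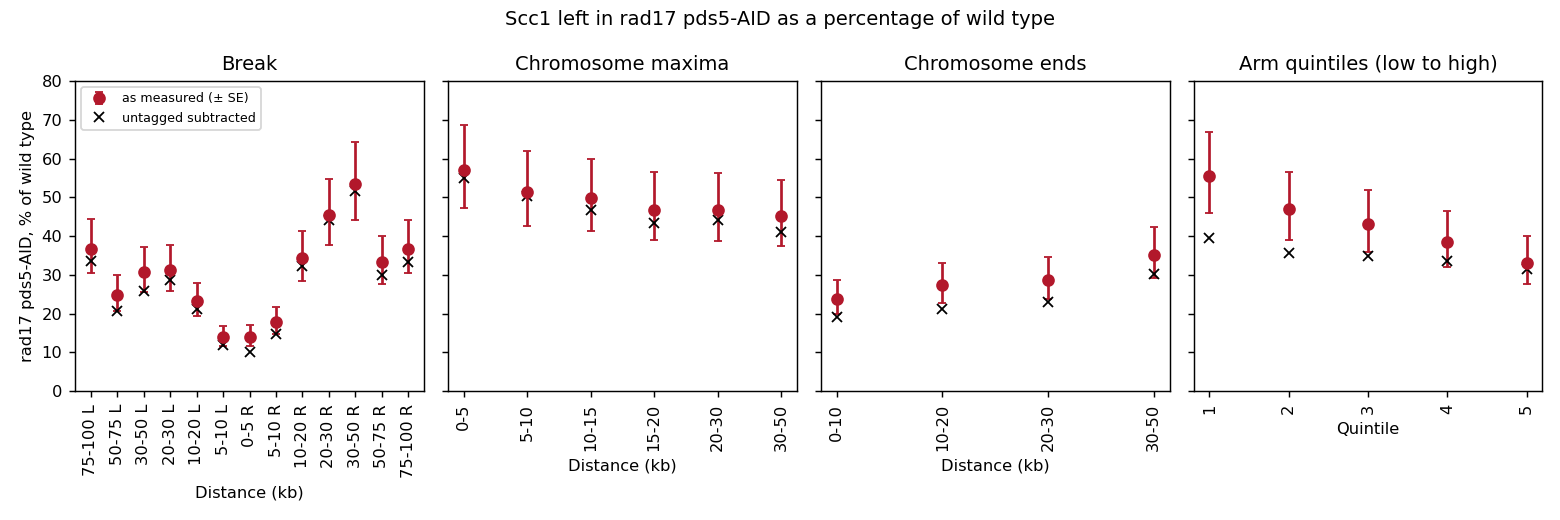
Scc1 left in rad17 pds5-AID as a percentage of wild type by distance from the break (L, left; R, right), from chromosome maxima and from chromosome ends, and by quintile of the arm windows; points with bars are as measured ± 1 SE, crosses after subtraction of the untagged level. The lowest points are the classes within 10 kb of the break (14.02% to 17.9%), and the quintiles drop from 55.4% to 33.2% as measured but only from 39.4% to 31.5% after subtraction.

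Chromosome ends, the outer 20 kb, lost more than the arms. The level was 6.62 and 7.45 in the double mutant, against 25.1 and 29.5 in wild type, 22.4 in wild type without a break and 1.88 untagged. The double mutant was thus 3.73-fold above background at the ends, and wild type 14.5-fold. The difference was -1.95 ± 0.27 (adjusted p = 7.56e-12). Against the arms of the same library the ends stood at 0.712 and 0.631 in the double mutant and 0.975 and 1.03 in wild type, a log2 difference of -0.58 ± 0.09 (adjusted p = 0.00116).

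All 30 ends with a value fell, and they spread more widely than maxima or arms. The largest fall was at the right end of chromosome 1, with 4.20 and 4.78 in the double mutant, against 24.5 and 29.4 in wild type, a difference of -2.58. The smallest was at the left end of chromosome 9, with 8.34 and 11.8, against 18.4 and 20.8, a difference of -0.98. Relative to the library median 27 ends fell and 1 rose, and the 1 that rose was that end of chromosome 9, by 0.31. By distance, 23.9% of wild type was left at 0 to 10 kb from an end, 27.5% at 10 to 20 kb, 28.7% at 20 to 30 kb and 35.2% at 30 to 50 kb.

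**Figure D4:**
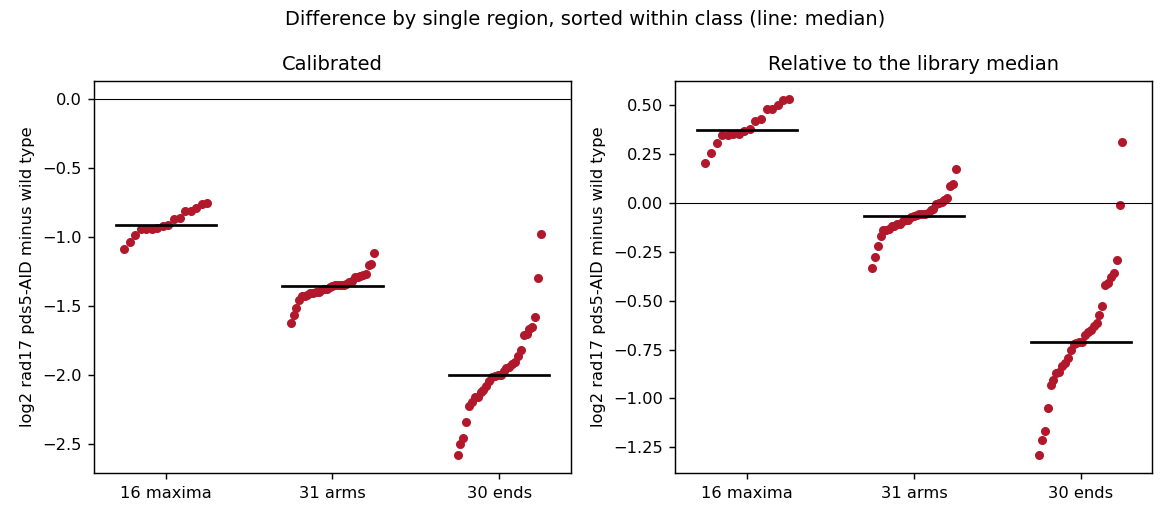
Log2 difference of rad17 pds5-AID minus wild type for each of 16 maxima, 31 arms and 30 ends, sorted within each class, calibrated and relative to the library median; lines are class medians. Calibrated, every point is below 0 and the ends reach -2.58; relative to the median the maxima lie above 0, the arms around it and 27 of the ends pass the test below it.

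The design also allows the double mutant to be set against the sum of its parts. At 5 to 10 kb left of the break the level was 17.3 and 14.7 in the double mutant, 33.0 and 57.9 in rad17, 78.9 and 134.9 in pds5-AID, and 100.5 and 128 in wild type. Thus pds5-AID overlapped wild type, rad17 lay below both, and the double mutant lay below rad17, by -1.46 ± 0.27 (limma, adjusted p = 5.20e-07). The log2 difference from wild type was -1.38 in rad17 and -0.14 in pds5-AID, whose sum would leave 35.0% of wild type where 14.02% was measured. The excess over that sum was -1.32 ± 0.38 (limma interaction, adjusted p = 0.0205). On the right it was also -1.32 ± 0.38 (adjusted p = 0.0205), with singles at -1.32 and 0.17. At 0 to 5 kb right it was -2.07 ± 0.38 (limma interaction, adjusted p = 9.99e-06), with singles at -1.15 and 0.39. That class held only 4 windows, and the classes at 5 to 10 kb held 5 each. At 0 to 5 kb right the extracts kept as little as 11.5% of no-break coverage, in replicate 2 of pds5-AID.

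These 3 break classes were the only ones of 111 regions past the test for such an excess, 2.7% of regions, and no region passed in the other direction. The excess was below 0 in all 13 break classes, but also in 16 of 16 maxima, 31 of 31 arms and 29 of 30 ends, so its sign sets no place apart. The call at 5 to 10 kb was fragile. As IP alone the excess was -0.99 on the left and -0.89 on the right (adjusted p = 0.241 and 0.395), while at 0 to 5 kb right it was -1.32 and passed (adjusted p = 0.0327), the 1 region of 111 that did so, 0.901%. The classes first run included the far bound of each distance in place of the near one, and there the excess was -1.26 and -1.15 and missed the threshold (adjusted p = 0.0565 and 0.0952). The bounds were changed after that result was seen, so the adjusted p of 0.0205 is not that of a single planned test. Leaving out 1 library at a time moved it between -1.73 and -0.92, and the call was lost in 6 of 8 such fits on each side, all but those without replicate 1 of rad17 or replicate 1 of pds5-AID. It was also lost when each region was given its own spread in place of one shared by all regions (adjusted p = 0.719).

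Away from the break no excess passed. It was -0.24 on arms, -0.27 at ends and -0.30 at maxima, each ± 0.38 and with adjusted p = 0.692. The 95% intervals were wide, -0.99 to 0.51 on arms, -1.01 to 0.48 at ends and -1.05 to 0.45 at maxima. They overlapped the intervals at 5 to 10 kb, which were -2.07 to -0.57 on the left and -2.07 to -0.58 on the right. On arms the single losses were -0.42 in rad17 and -0.71 in pds5-AID, against -1.37 in the double mutant. At the ends they were -0.56 and -1.13, against -1.95. At the maxima they were -0.22 and -0.38, against -0.90. Against wild type, pds5-AID passed the test on arms and at ends (limma, adjusted p = 0.0185 and 0.000182) and rad17 did not (adjusted p = 0.217 and 0.162); the difference between the single mutants was not tested. Within each library, against the arms, the excess at 5 to 10 kb was -1.08 on both sides (adjusted p = 0.0413 left and 0.00313 right). It rests on the changed class bounds and was not recomputed under other settings.

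**Figure D5:**
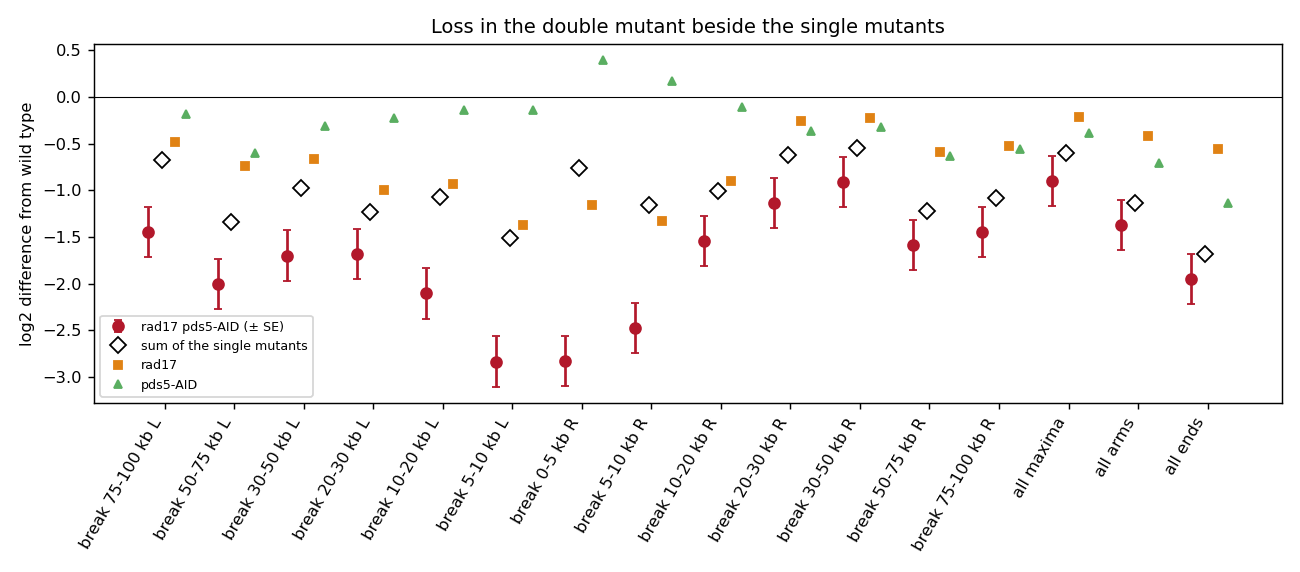
Log2 difference from wild type at 13 distance classes from the break and in 3 zones: rad17 pds5-AID (points ± 1 SE), the sum of both single mutants (open diamonds), rad17 (squares) and pds5-AID (triangles). The double mutant lies furthest below the sum within 10 kb of the break, by -1.32 at 5 to 10 kb on both sides, and close to it on arms and at ends, by -0.24 and -0.27.

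The deepest falls were found on several chromosomes. Windows that fell were joined into 297 stretches, the longest 338 kb, and the 10 stretches with the deepest single windows are given by that window. They included 3 at chromosome ends, 1 within 100 kb of the break and 6 on arms, with none at a maximum; ends make up 3.69% of kept windows, the stretch around the break 1.69%, arms 90.8% and maxima 3.87%. On chromosome 5, which holds 545 of the 11638 windows, lay 3 of the 10. The deepest fall was on chromosome 2 in the stretch 1 to 34000, with 10.5 and 12.6 in the double mutant, against 127.5 and 254 in wild type, a difference of -3.97. The next was on chromosome 16 in the stretch 444001 to 584000, with 5.10 and 5.87, against 70.3 and 93.0, a difference of -3.89. Left of the break, in the stretch 43001 to 115000 of chromosome 5, the deepest window held 18.6 and 19.2 in the double mutant, against 132.8 and 281.6 in wild type, a difference of -3.35. The remaining 7 ranged from -3.73 on chromosome 5 in the stretch 454001 to 484000 to -3.27 on chromosome 7 in the stretch 172001 to 424000.

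In these windows wild-type replicate 2, whose extract was uneven, lay above replicate 1 in 10 of 10, by 1.32-fold to 7.05-fold, while in the double mutant replicate 2 was 1.03-fold to 1.84-fold above replicate 1. As IP alone the 10 falls were smaller, from -3.42 to -2.04, and each passed the test, on a scale where 95.9% of all windows fell. Each also passed relative to the library median, where 14.8% of all windows fell. The 10 were picked as the deepest falls in these same libraries, so their passing is no separate support. No window rose in the calibrated comparison, so none is named.

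The distribution of Scc1 within a library was read from IP coverage alone, over kept windows. The maxima, 3.87% of windows, held 12.8% and 13.6% of the signal in the double mutant, against 9.46% and 9.66% in wild type. The ends, 3.69% of windows, held 2.15% and 1.93% in the double mutant, against 3.02% and 3.09% in wild type. The stretch within 100 kb of the break held 2.40% and 2.38%, against 2.71% and 2.85%. Among arm windows, the highest quintile held 48.8% and 52.0% of arm signal in the double mutant, against 55.6% and 56.2% in wild type, and the lowest quintile 8.17% and 7.14%, against 5.73% and 5.53%. The double mutant thus had a larger part of its IP signal at maxima and in low arm windows. A smaller part lay at ends, at the break and in high arm windows, with no overlap between the groups in any of these 5 shares. The arms share did not overlap either, at 82.6% and 82.1% against 84.8% and 84.4%. Shares of 1 total do not vary independently. In pds5-AID the shares at ends (2.32% and 2.19%) and in the highest quintile (48.7% and 51.5%) also lay below wild type. Its share at the break lay above (3.44% and 3.59%). No untagged signal was subtracted from these shares, and the genome level was 3.40-fold above untagged in the double mutant and 8.33-fold in wild type. How much of the larger share in low arm windows was Scc1 was not tested.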

How the data were processed

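Scc1 ChIP-seq libraries were grouped by their labels. The submitters' processing notes name MACS2, bedtools, SAMtools and Bowtie2, with neither version nor role. The deposited signal is coverage per 1 kb window, and per the series description a Candida glabrata spike-in calibrated the IP samples. In the deposited extracts the smallest value above 0 was 1, so they are unscaled; in each IP the smallest value above 0 was taken as 1 read, an assumption behind the depths given. The sources used here do not tell how coverage was averaged.

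Each IP was divided by its own extract, set relative to its median. A window was kept if the relative extract, averaged over 9 HA extracts, was 0.25 to 4. Windows were tested as log2 after adding 5% of each library's median, which understates changes of low windows; regions, with at least 3 kept windows, had no pseudocount. limma 3.58.1 in R 4.3.3 fitted 5 group means to 9 HA IP libraries (4 residual degrees of freedom; adjusted p threshold 0.05). All windows shared an SD of 0.318 and all regions one of 0.269, and regions overlap, so small p-values rest on that pooling; alternatives without moderation are given in the closing section. On simulated data, 100% of windows changed by a log2 of -2 and 58% of those changed by -1 were recovered, and 100% of regions changed by -1. Only 50 of 11638 windows were changed at each size, with noise independent between windows, and 8 unchanged windows were called. In the data most windows fell, so these rates need not hold for this comparison.

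The break classes include the near bound and exclude the far one. The other bounds had been run first, and the excess over the single mutants at 5 to 10 kb missed the threshold with them; the change, made to keep to earlier processing of the series, followed that result, and both are given. Maxima were first taken from IP over extract, then from IP alone, where 15 of 16 lay within 2 kb of those of the HA library. Named windows are the deepest windows of the 10 most strongly changed joined stretches. The comparison, zones and rules were chosen with earlier results of these data known. The alternatives were IP alone, centring, other extract scaling and filters, pseudocounts, fewer libraries, a replicate block and leaving out each library.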

Additional observations from a re-analysis of the deposited data

Results flagged for a closer look

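Results are listed here where the excess of the double mutant over the sum of the single mutants passed its own test. That test was the limma interaction on the log2 scale over 9 HA libraries. The call at 5 to 10 kb was fragile, as given above, and passed only after the class bounds were changed. The excess was -1.32 in the class 5 to 10 kb to the left of the break, -2.07 within 5 kb to its right and -1.32 from 5 to 10 kb to its right. Within libraries, relative to the arms, it was -1.08 in the left class at 5 to 10 kb, -1.08 in the right class and -0.34 over 5 to 50 kb on both sides (adjusted p = 0.0413, 0.00313 and 0.0413). Relative to the maxima it was -1.02 in that left class and -1.02 in that right class (adjusted p = 0.0413 and 0.00313). The ratios at 5 to 10 kb use the same changed bounds, and the excess of the ratios was not recomputed under other settings. In the extracts the double mutant kept more DNA than wild type within 5 kb of the break and at 5 to 10 kb left. It kept less at 10 to 20 kb, and the part of these differences in the excess was not tested.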

How the results depend on the processing

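Of 365 recomputed values, over 21 results and 22 settings, 314 kept their direction, their side of the threshold and, for counts, a value within 1.5 times; 4 reversed. Windows that fell numbered 5466 with the extract as deposited, 1721 centred and 2407 centred as IP alone, and 8143 to 10884 when 1 library was left out. Windows that rose numbered 4 as IP alone, 1625 centred, 2324 centred as IP alone, 2 with only the 4 libraries, 3 with the replicate block, 2 with a pseudocount of 1%, 1 with the extract of wild-type replicate 1 used for both wild-type libraries, and 0 to 2 when 1 library was left out. Centring changed the flank of 5 to 50 kb to -0.068 (adjusted p = 0.439) and the arms to -0.080 (-0.12 as IP alone); it reversed the maxima to 0.39 (0.37 as IP alone). The maxima also missed the threshold with the extract as deposited (-0.80, adjusted p = 0.120) and lay between -1.12 and -0.68 when 1 library was left out. Centring subtracts the genome-wide shift by construction; the cause of the other changes was not tested.

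The excess over the sum of the single mutants at 5 to 10 kb left and right missed the threshold as IP alone (-0.99 and -0.89), centred as IP alone (-0.78 and -0.68), with the extract as deposited (-1.63 and -1.64, both with an adjusted p of 0.538), with a spread fitted per region (-1.32 and -1.32) and with the far bound of the classes included (-1.26 and -1.15). Leaving out 1 library gave -1.73 to -0.92 left and -1.73 to -0.92 right. Against uncut wild type, the classes at 5 to 10 kb were -1.46 left and -1.35 right as IP alone, the right one reversed; centred they were 1.00 left, reversed, and 1.70 right; the left one was -0.67 with the far bound included. Leaving out 1 library gave 0.44 to 0.64 on the right, past the threshold without either pds5-AID library. With the untagged level subtracted, the difference from wild type was -2.75 at 5 to 10 kb right and -2.30 at the ends. This subtraction was planned for the classes at 5 to 10 kb. For the ends and the other zones it was chosen after seeing the data, as were the class bounds and the shared wild-type extract.

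With the extract of wild-type replicate 1 used for both wild-type libraries, 11007 windows fell and no call on a region changed. The replicate numbers were not established as pairs: the changes between replicates of the double mutant and wild type correlated at r = 0.192 across windows, with 2 pairs. With a replicate block 11341 windows fell, and no call on a region was lost or gained. With a spread fitted per region, every zone difference from wild type still passed, with adjusted p from 0.00621 at the ends to 0.0471 at the maxima. A filter of 0.5 to 2 on the extract left the classes at 5 to 10 kb without a value. With 2 libraries a group and 1 shared spread, differences of the size of the excess on arms and ends were not detectable here.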

Other observations

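Across kept windows, the log2 profile of the double mutant correlated with that of pds5-AID at r = 0.978, with rad17 at r = 0.931 and with wild type at r = 0.909 (Pearson, n = 11638 windows of mean profiles). Windows are not independent replicates, the libraries share underlying sequence and mappability, and wild type includes the uneven extract, so these values are descriptions. The spread of arm windows within a library, as the SD of log2 IP coverage alone, was 0.966 and 1.06 in the double mutant, 0.979 and 1.07 in pds5-AID, 1.15 and 1.15 in rad17, and 1.15 and 1.17 in wild type. The double mutant thus had the range of values of pds5-AID, below that of both other groups in each library. The share of IP signal within 100 kb of the break did not follow this order: it was 2.40% and 2.38% in the double mutant, 3.44% and 3.59% in pds5-AID, 2.29% and 2.32% in rad17, and 2.71% and 2.85% in wild type.

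Replicate 2 lay above replicate 1 by a median log2 of 0.28 in the double mutant and 0.16 in wild type.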
